A study of Mus musculus with 9 samples.

Results

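The genes described here encode the proteins of the cytosolic ribosome. They were chosen by symbol: every protein-coding gene whose mouse symbol starts with Rpl or Rps and a digit, plus Rplp0, Rplp1, Rplp2 and Rpsa, without the Rps6k kinases and without pseudogenes. The rule found 86 genes among 47729 listed identifiers: 43 large-subunit genes, 31 small-subunit genes, 3 genes of the large subunit's stalk, 7 paralogs of other members, the retrogene Rps27rt, and Rps19bp1. Rps19bp1 encodes a protein that binds Rps19 and is no subunit, and it is in the set only through its letters. The libraries held polyribosomal RNA precipitated through the tag. The tissue was the dorsal striatum at postnatal day 28 on the C57BL/6 background, with 3 groups of 3 libraries that the labels call biological triplicates. Every mouse carried D1-Cre, Cre recombinase driven by the D1 dopamine receptor gene, and RT, the RiboTag allele. Control mice (D1-Cre-RT) carried nothing further, and the other groups (both D1-Cre-flTrkB-RT) also carried floxed TrkB, the BDNF receptor gene Ntrk2, and differed by whether the mice showed stereotypy, a repetitive behavior. The labels name D1 medium spiny neurons as the enriched cell type. RNA from before the precipitation was not analysed here, so how far these cells were enriched was not measured.

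A cytosolic ribosome joins a small subunit, which reads the mRNA, to a large subunit, which forms the peptide bond. Their proteins are needed in matched amounts, and their short, abundant mRNAs share a terminal oligopyrimidine start through which mTORC1 and the RNA-binding protein Larp1 control their translation. Ribosomal protein mRNAs are also frequent templates of retrotransposition, so mammalian genomes hold many intronless processed pseudogenes that match them closely. In RiboTag mice, Cre replaces the last coding exon of Rpl22 with a version that adds a hemagglutinin (HA) tag to the protein's end, and antibody to HA then pulls down the ribosomes of the Cre-expressing cells with their mRNA.

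Sequences were read from GRCm38 with the GENCODE M21 annotation. The first is the end of the Rpl22 reading frame, shown because the tag joins the protein there. Rpl22 lies on the plus strand at chr4:152325742-152334071, and the stop codon is in capitals.
Rpl22, coding bases 328 to 387: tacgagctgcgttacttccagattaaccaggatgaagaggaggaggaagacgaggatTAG
The next set shows how little separates a ribosomal protein gene from its copies, since the levels below turn on where the reads were assigned. Over the compared coding stretch, Rps13 (chr7:116331505-116334195, minus strand) differed from the pseudogene Rps13-ps1 at 2 of 456 aligned bases and from Rps13-ps2 at 0 of 453. Rpl24 (chr16:55966275-55971435, plus strand) differed from the pseudogene Gm9385 at 1 of 471. Rps27 (chr3:90212522-90213651, minus strand) and the intronless Rps27rt differed at 0 of 255. Capitals mark the bases that differ between the gene and a copy, and all copies but Rps13-ps1 lie on the minus strand.
Rps13, coding bases 370 to 429: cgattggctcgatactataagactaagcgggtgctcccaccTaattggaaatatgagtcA
Rps13-ps1, chr8:87048089-87048148: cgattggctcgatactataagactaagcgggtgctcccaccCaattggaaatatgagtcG
Rps13-ps2, chr7:88530470-88530529: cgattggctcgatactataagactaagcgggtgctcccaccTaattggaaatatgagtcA
Rpl24, coding bases 254 to 313: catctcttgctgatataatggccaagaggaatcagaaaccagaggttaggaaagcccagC
Gm9385, chr9:116040751-116040810: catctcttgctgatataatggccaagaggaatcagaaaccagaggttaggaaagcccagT
Rps27, coding bases 1 to 60: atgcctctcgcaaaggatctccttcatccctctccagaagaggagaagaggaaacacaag
Rps27rt, chr9:114982648-114982707: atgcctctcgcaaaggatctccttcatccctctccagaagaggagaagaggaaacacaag

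Levels are in CPM, a gene's reads scaled by the total of its library, and the libraries held 27103152 to 40578512 reads. As a check of the labels, Ntrk2 had a mean of 397 CPM in controls (SD 84.8, n = 3), against 39.6 ± 4.85 CPM in the stereotypy group and 18.9 ± 4.67 CPM in the group without it (SD, n = 3). D1 medium spiny neuron markers were present in all libraries, and no marker list had a gene at 0 in all of them. Summed astrocyte markers (12 genes) ranged over 509 to 612 CPM in controls, 682 to 711 CPM with stereotypy and 498 to 619 CPM without. Summed vascular markers (12 genes) ranged over 28.2 to 52.2, 40.7 to 100 and 20.0 to 35 CPM in the same order, and summed microglial markers (12 genes) over 18.5 to 37.0, 39.8 to 49.7 and 23.6 to 31.0 CPM. Summed oligodendrocyte markers (12 genes) ranged over 597 to 1259, 1228 to 2186 and 791 to 1815 CPM, and their log2 changes against control were above 0 in 12 of 12 genes in both floxed groups (medians 0.63 and 0.58). Oligodendrocyte precursor markers (6 genes) ranged over 10.7 to 20.6, 21.7 to 30.6 and 16 to 28.2 CPM, with changes above 0 in 6 of 6 in both. Cortical excitatory markers (8 genes) ranged over 275 to 860, 160 to 286 and 583 to 1438 CPM. Summed D1 markers (9 genes) ranged over 1902 to 2576, 2349 to 2446 and 1580 to 1954 CPM, and D2 markers (5 genes) over 443 to 1433, 259 to 424 and 597 to 1050 CPM. Markers shared by medium spiny neurons (12 genes) ranged over 16925 to 19950, 16630 to 17122 and 13223 to 16870 CPM. Against control 4 of the 12 were called lower without stereotypy and 1 with it (limma, beside 3.01% and 1.53% of all genes). Between the floxed groups 6 were called higher with stereotypy, beside 6.61%. Of 11 astrocyte markers tested, 5 were called higher with stereotypy against control and 1 without, beside 3.58% and 3.76%. Between the floxed groups 3 of them were higher with stereotypy. Interneuron markers (12 genes) ranged over 621 to 1042, 738 to 787 and 684 to 901 CPM. Between the floxed groups 11 of 12 had a log2 difference below 0 (median -0.90), and 1 was called lower, beside 3.6%. Some other lists also had calls.

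Ribosomal protein genes held little of these libraries. Their summed level was 1673, 1616 and 1757 CPM in the controls, 1889, 1917 and 1662 CPM with stereotypy and 1837, 1970 and 1959 CPM without, or 0.162% to 0.197% of all reads. All 3 libraries without stereotypy lay above all 3 controls, while stereotypy replicate 3 lay inside the control range. In these bulk samples, fewer cells of a type and less RNA per cell cannot be told apart. When the libraries were rescaled by median-of-ratios size factors, the sums were 1691, 1676 and 1796 in controls, 1804, 1846 and 1674 with stereotypy and 1833, 2002 and 1946 without, where the lowest stereotypy library lay just under the lowest control. Large-subunit genes summed to 817 ± 43.3, 881 ± 56.9 and 922 ± 41.8 CPM (SD, n = 3 each; control, stereotypy, no stereotypy). Small-subunit genes summed to 714 ± 35.3, 776 ± 77.3 and 820 ± 33.2 CPM, so both subunits stood in the same order of group means.

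Most reads of this gene family were listed under its copies. A copy was taken to be a pseudogene row, a row with a "-ps" name or a single-exon gene that shared at least 100 words of 50 bases with a member's transcripts, and each was assigned to the member it shared most words with. Of the 351 copies, 340 were annotated as pseudogenes and 105 reached a mean of 1 CPM. They summed to 2564, 2503 and 2661 CPM in controls, 2936, 2941 and 2553 CPM with stereotypy and 2857, 3033 and 2983 CPM without. The members held 39.1% to 39.8% of the reads of genes and copies together in each of the 9 libraries, so the split did not separate the groups. How reads with several matches were treated is not given in the sources used here, and the part of these copies that is transcribed was not measured.

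**Figure D1:**
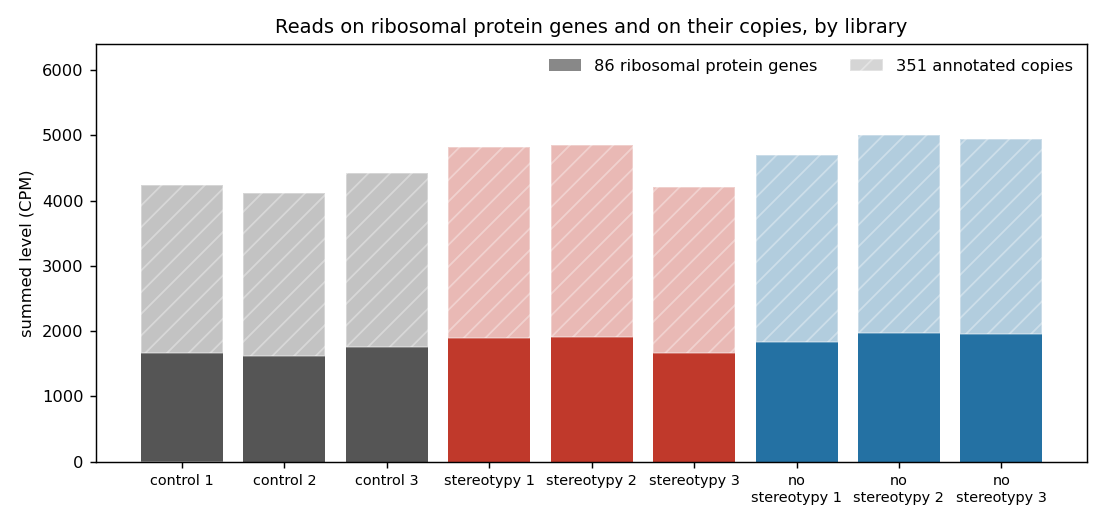
Summed level in CPM (y axis) of the 86 ribosomal protein genes (solid) and of their 351 annotated copies (hatched, stacked on top) in each of the 9 libraries (x axis, coloured by group). The copies make up the larger part of every bar, and stereotypy replicate 3 stands with the controls.

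The share of a family's reads that stayed on the gene itself varied widely. Of the 68 members with copies, 54 held under 50% of their family's reads, 23 held under 10% and 5 held over 90%, and the median was 19.9%. Rpl24, a large-subunit protein, was listed at 0.0766 CPM on average over the 9 libraries, from 0 to 6 reads per library, while its pseudogene Gm9385 stood at 78.0, 74.2 and 72.5 CPM in controls, 80.7, 80.8 and 71.4 CPM with stereotypy and 74.2, 78.8 and 83.9 CPM without. Rpl23 had 4.76 to 7.27 CPM over the libraries, against 105 to 133 CPM on its pseudogene Gm9794. Rpl5, which carries 5S rRNA into the large subunit, had 12.4 to 20.9 CPM against 122 to 150 CPM on Gm15500. Rps6, the substrate of S6 kinase, had 22.4 to 32.5 CPM against 93.5 to 130 CPM on Rps6-ps4. Rps27 averaged 0.932 CPM, and the retrogene Rps27rt had 25.1, 26.9 and 28.2 CPM in controls, 31.3, 31.2 and 26.4 CPM with stereotypy and 24.5, 32.3 and 30.02 CPM without. These genes and copies, apart from Rpl5 and Rps27, were picked after their values were seen.

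Levels between members are compared per kb of transcript. Among the 76 members tested below, the mean level ran from 1.01 to 257 CPM per kb (median 12.6), and with the copies' reads added from 2.82 to 290 CPM per kb (median 60.5). The SD of log2 levels across these members was 1.81 without and 1.504 with the copies. Among the highest in controls were Rps3, near the mRNA entry channel of the small subunit, at 239 CPM per kb, Rpl8 at 203, Rpl4 at 137 and Rps9 at 99.4. Of these, Rps3, Rpl8 and Rps9 had no copy by this rule, and Rpl4 held 89.2% of its family's reads. The 5 lowest tested in controls were Rpl12 at 0.865 CPM per kb, Rps7 at 1.28, Rpl19 at 1.31, Rps20 at 1.72 and Rpl17 at 1.73. Rpl12, Rpl19 and Rps7 held 2.13%, 3.01% and 2.42% of their family's reads, and Rps20 and Rpl17 held 44.6% and 40.5%. The order of levels among members therefore mixes RNA level with the assignment of reads, and these cannot be told apart from these tables.

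**Figure D2:**
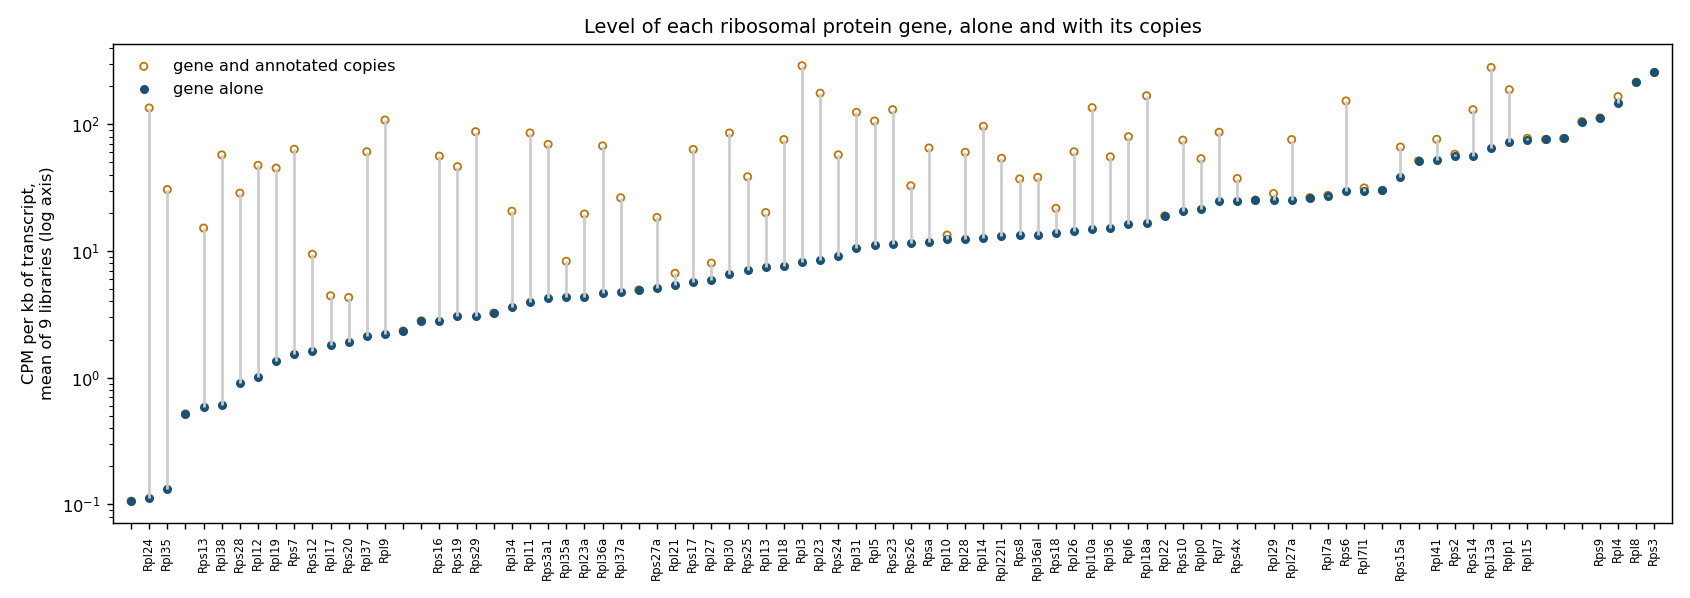
Mean level over the 9 libraries in CPM per kb of transcript (y axis, log scale) of the 85 members above 0, ordered by the level of the gene alone (x axis, with names for members that have copies and for Rps3, Rpl8, Rps9 and Rpl22). Filled points show the gene alone and open points the gene with its annotated copies; Rpl24 lies near the bottom alone and among the upper members with its copies, while Rps3 and Rpl8 do not move.

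Of the 86 members, 76 reached 1 CPM in at least 3 libraries and were tested. The 10 others were Rpl24, Rpl35, Rpl38, Rps12, Rps13, Rps27 and Rps28 of the subunits and the paralogs Rpl3l, Rpl10l and Rpl39l. Rpl10l was listed at 0 in all 9 libraries, which allows up to 0.0739 to 0.111 CPM (3 reads per library, counting error only). Rpl3l, known from striated muscle, averaged 0.535 CPM and Rpl39l, known from testis, averaged 0.0718 CPM. With the reads of copies added, Rpl24 came to 91.2 CPM, Rpl35 to 28.9, Rpl38 to 21.1, Rps13 to 14.5, Rps28 to 10.9 and Rps12 to 4.64 CPM on average.

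Rpl22 carries the tag in these mice and is known as a large-subunit protein that ribosomes can be assembled without. It stood at 39.2, 37.0 and 35.8 CPM in controls, 40.2, 42.6 and 34.5 CPM with stereotypy and 38.7, 40.2 and 41.2 CPM without. The groups overlapped, and stereotypy replicate 3 was the lowest of all. In the limma fit its log2 change was 0.06 for stereotypy against control (SE 0.10, adjusted p = 0.747), 0.10 for no stereotypy against control (SE 0.10, adjusted p = 0.617) and -0.04 between the groups with floxed TrkB (SE 0.10, adjusted p = 0.839). The first of these turned to -0.01 under median-of-ratios rescaling, which also moved the median of all genes from 0.05 to -0.01. Rpl22 had no copy by this rule, 94.8% of its 50-base words were found in no other gene, and it ranked 26 of 86 per kb in controls. Reads from the tagged and the untagged allele are not told apart in the tables, so the level of tagged mRNA was not measured.

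The other paralogs were compared with their parents per kb over the 9 libraries. Rpl22l1, which can take the place of Rpl22, stood at 13 CPM per kb against 19.0 for Rpl22, with 4.29 to 9.02 CPM over the libraries. Rpl7l1 stood at 29.7 CPM per kb against 24.8 for Rpl7. Rpl36al stood at 13.4 against 4.65 for Rpl36a, Rps27l at 3.24 against 2.34 for Rps27, Rpl39l at 0.106 against 2.82 for Rpl39, and Rpl3l at 0.518 against 8.16 for Rpl3. The order turned with the copies' reads for 3 of these pairs. Rpl22l1 then stood at 54.0 CPM per kb against 19.0 for Rpl22, Rpl7l1 at 31.5 against 86.6 for Rpl7, and Rpl36al at 38.2 against 67.6 for Rpl36a. Rpl3 with its copies stood at 290.1 CPM per kb. Rps27 had 0 copies by this rule, because the matching Rps27rt is itself a member. The reads of Rps27rt were therefore not added to Rps27, and the order of Rps27l and Rps27 is without them. Rpl10 stood at 12.5 CPM per kb beside Rpl10l at 0. None of the 4 paralogs tested passed the threshold in any comparison, and between 0 and 1 of them did at an unadjusted p under 0.05. Over all genes 5.1% to 10.2% were called in limma, and 20.4% to 29.9% had an unadjusted p under 0.05. With so few paralogs, no call is near that share.

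The first comparison asks which ribosomal protein genes differed in mice with stereotypy from controls. Of the 76 tested members, 2 rose and 0 fell (limma on log2(CPM + 1), adjusted p under 0.05 over all 13695 genes tested), a share of 2.63% called. Of all genes 5.1% were called, 3.58% higher and 1.53% lower. On the recovered reads edgeR also called 2 members beside 4.7% of all genes, and DESeq2 called 2 beside 11.1%. Rps19, a small-subunit protein needed for maturation of 18S rRNA, stood at 1.45, 1.19 and 1.13 CPM in controls, 3.40, 3.02 and 2.14 CPM with stereotypy and 1.58, 1.76 and 1.82 CPM without. All 3 stereotypy libraries lay above the other 6, at 37 to 95 reads per library. Its log2 change was 0.76 (SE 0.17, adjusted p = 0.0325). Rps4x, the X-linked S4 protein of the small subunit, stood at 20.1, 18.2 and 20.8 CPM in controls, 29.1, 30.6 and 24.1 CPM with stereotypy and 23.2, 24.8 and 26.6 CPM without. All 6 libraries with floxed TrkB lay above the 3 controls, and the log2 change with stereotypy was 0.48 (SE 0.12, adjusted p = 0.0446). Over the alternatives the limma, edgeR and DESeq2 adjusted p ranged from 0.00747 to 0.428 for Rps19 and from 0.00998 to 0.625 for Rps4x. The count of 2 was 0 without control replicate 2 or 3, stereotypy replicate 1 or 2, or no stereotypy replicate 1 or 2, and 1 without control replicate 1. Over all 13695 genes, 699 were called with all libraries and 124 to 805 with a library left out.

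Over the members as a group, 62 of 76 (81.6%) had a log2 change above 0 for stereotypy against control, beside 58.3% of all genes tested. The median was 0.14 beside 0.05 over all genes. In 11 members (14.5%) all stereotypy libraries lay above all controls, beside 18% of all genes, and in 0 members did they lie below, beside 9.72% (27.7% of all genes in either direction). At an unadjusted p under 0.05 there were 5 members (6.58%), beside 24% of all genes. Both the Rps19 and the Rps4x call were lost when a covariate of astrocyte, oligodendrocyte, oligodendrocyte precursor, microglial and vascular markers was added (log2 changes 0.66 and 0.29, adjusted p = 0.398 and 0.625), and the median of the members then was -0.01, with 36 of 76 above 0. That fit called 24 of all 13695 genes, whose median was 0.02. With stereotypy replicate 3 left out, the members' median was 0.19, and with control replicate 2 left out it was 0.09. Over all genes these were 0.07 and 0.05.

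Among members at 5 CPM or more, those with the largest changes beside Rps4x did not pass the threshold. Rps10, a small-subunit protein at 15.8, 16 and 15.5 CPM with stereotypy against 10.8, 11.5 and 13.1 CPM in controls, had a log2 change of 0.39 (SE 0.13, adjusted p = 0.112). Rpl5 had 18.4, 20.9 and 16 CPM against 12.8, 14.7 and 13.7 CPM and a log2 change of 0.39 (SE 0.18, adjusted p = 0.198). On the other side, Rpl3, which lines the peptidyl transferase center, had 6.52, 10.3 and 2.44 CPM against 8.62, 6.48 and 8.62 CPM, a log2 change of -0.42 (SE 0.38, adjusted p = 0.536) that turned to 0.06 without stereotypy replicate 3. Rps21 (-0.32, SE 0.27, adjusted p = 0.498) and Rpl29 (-0.24, SE 0.15, adjusted p = 0.354) were next. Rps21, a small-subunit protein, had 9.81, 12.1 and 5.90 CPM with stereotypy against 12.3, 8.23 and 14.4 CPM in controls, and its groups overlapped, as did those of Rpl3 and Rpl29.

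**Figure D3:**
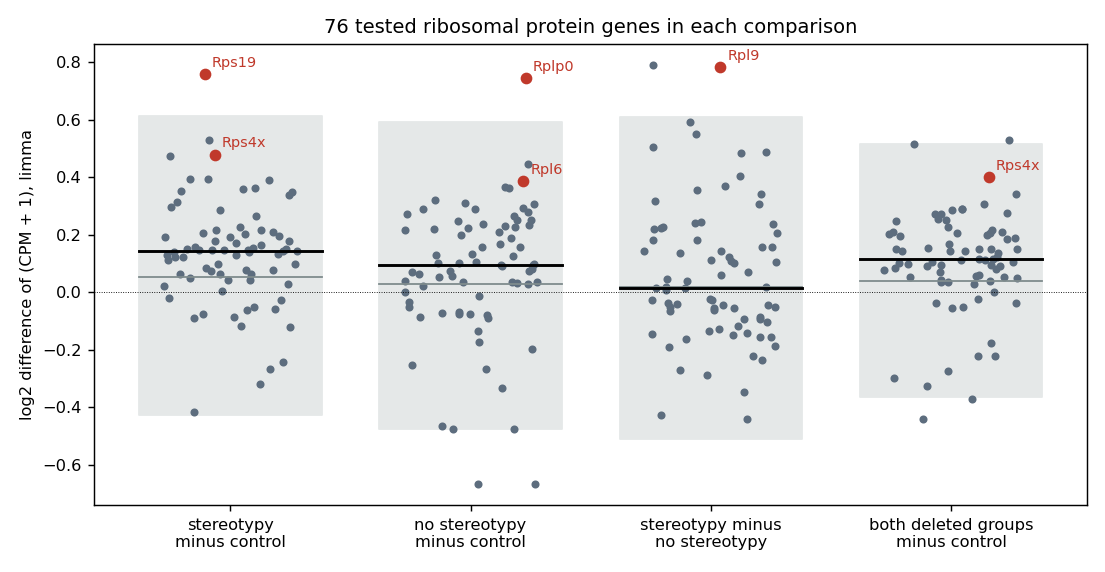
Log2 difference of (CPM + 1) from the limma fit (y axis) for the 76 tested members (points) in the 4 comparisons (x axis), with genes past adjusted p 0.05 in red and named. Black lines mark the members' median, grey lines the median of all 13695 genes and grey boxes the 5th to 95th percentile of all genes; the members' median lies above that of all genes in the comparisons with control and beside it in stereotypy against no stereotypy.

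The second comparison sets mice with floxed TrkB but no stereotypy against the same controls. Again 2 members rose and 0 fell, a share of 2.63%. Of all genes 6.77% were called, 3.76% higher and 3.01% lower. On the recovered reads edgeR called 2 members beside 6.6% of all genes, and DESeq2 called 3 beside 11%. Rplp0, the base of the stalk that recruits elongation factors, stood at 11.9, 17.3 and 12.4 CPM in controls, 19.9, 14.1 and 18.4 CPM with stereotypy and 24.3, 22.5 and 24.2 CPM without. The libraries without stereotypy lay above the other 6, and the log2 change was 0.74 (SE 0.16, adjusted p = 0.0224). Rpl6, a large-subunit protein, stood at 18, 18.1 and 18 CPM in controls, 20.0, 19.9 and 20.5 CPM with stereotypy and 22.9, 24.5 and 24.2 CPM without. The 3 groups did not overlap, and the log2 change without stereotypy was 0.39 (SE 0.10, adjusted p = 0.0360), while that with stereotypy was 0.15 (SE 0.10, adjusted p = 0.352). Over the alternatives the limma, edgeR and DESeq2 adjusted p ranged from 0.00261 to 0.235 for Rplp0 and from 0.0110 to 0.133 for Rpl6. The count of 2 was 0 without control replicate 1 or no stereotypy replicate 1, and 1 without any other single library. Over all 13695 genes, 927 were called with all libraries and 317 to 935 with a library left out.

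At an unadjusted p under 0.05 there were 19 members (25%), beside 22.5% of all genes. In 18 members (23.7%) all libraries without stereotypy lay above all controls, beside 14.9% of all genes, and in 2 (2.63%) they lay below, beside 10.6% (25.5% in either direction). The log2 change was above 0 in 55 of 76 (72.4%), beside 54.7%, and the median was 0.10 beside 0.03. Quantile normalization gave a median of 0.06, beside -0.005 over all genes. Leaving out a library gave 0.04 (control replicate 2), 0.05 (no stereotypy replicate 3) or 0.15 (control replicate 3), beside 0.03, 0.02 and 0.02 over all genes. The most abundant members were among those that did not overlap: Rps3 had 215, 235 and 233 CPM in controls and 256, 289 and 253 CPM without stereotypy (log2 change 0.22, SE 0.10, adjusted p = 0.201). Rpl8, at the peptidyl transferase center, had 182, 194 and 193 CPM against 225, 239 and 214 CPM (0.25, SE 0.08, adjusted p = 0.106), with 191, 199 and 172 CPM in the stereotypy group. Rps9 had 81.2, 77.7 and 86.7 CPM against 102, 105 and 98.7 CPM (0.31, SE 0.09, adjusted p = 0.0773), and Rpl4 also lay above all controls.

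Rpsa, the laminin receptor protein of the small subunit, had 15, 16.8 and 23.4 CPM in controls and 22.1, 23.6 and 30.04 CPM without stereotypy, and the groups overlapped (log2 change 0.45, SE 0.17, adjusted p = 0.141). Rplp1, a stalk protein that binds Rplp0 through dimers with Rplp2, had 31.3, 32.3 and 30.02 CPM against 33.9, 42.6 and 45.8 CPM (0.37, SE 0.12, adjusted p = 0.106), and Rplp2 had a log2 change of 0.04 (SE 0.17, adjusted p = 0.928). Of the 3 stalk genes, 1 passed, beside 6.77% of all genes. The stalk genes Rplp1 and Rplp2 were named after their values were seen. Without control replicate 3 the Rpsa change was 0.62 (adjusted p = 0.0331, limma). Rpl31 lay lower, at 4.68, 4.03 and 6.70 CPM without stereotypy against 6.79, 7.33 and 8.13 CPM in controls (-0.48, SE 0.18, adjusted p = 0.143), and with its copies' reads the log2 change was 0.02. Without no stereotypy replicate 3 it was -0.65 (adjusted p = 0.0472, limma).

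The third comparison sets the groups that share the floxed TrkB genotype against each other, with stereotypy against without. These groups differed in more than the behavior. Ntrk2 was higher with stereotypy (log2 difference 1.05, SE 0.19, limma adjusted p = 0.0206). Median log2 differences of the marker lists ran from -1.28 (cortical excitatory) to 0.79 (vascular). Of the 76 members, 1 was higher with stereotypy and 0 lower, a share of 1.32%. Of all genes 10.2% were called, 6.61% higher and 3.6% lower. On the recovered reads edgeR called 1 member beside 9.75% of all genes, and DESeq2 called 3 beside 17.1%. Rpl9 stood at 1.67, 1.22 and 1.26 CPM in controls, 3.33, 2.44 and 1.70 CPM with stereotypy and 0.827, 0.952 and 1.21 CPM without. It rested on 32 to 93 reads per library, its stereotypy libraries lay above the other 6, and the log2 difference was 0.78 (SE 0.20, adjusted p = 0.0351). Its family stood at 90.6, 81.8 and 71.2 CPM with stereotypy and 75.7, 86.3 and 85.0 CPM without, groups that overlapped. Over the alternatives its adjusted p ranged from 0.00733 to 0.905 (limma, edgeR and DESeq2). The count of 1 was 0 without any one stereotypy library or without no stereotypy replicate 1 or 2, and 2 without no stereotypy replicate 3. Calls over all 13695 genes moved as well, from 1398 with all libraries. They were 0 without no stereotypy replicate 1 or 2 or stereotypy replicate 3, and 1 without stereotypy replicate 2. Without stereotypy replicate 1 they were 806, and without no stereotypy replicate 3 they were 1197. A lost member call in fits with 0 or 1 calls says nothing of that member. In 4 members (5.26%) the stereotypy libraries lay above those without, beside 20.8% of all genes, and in 8 (10.5%) below, beside 17.5% (38.3% in either direction). At an unadjusted p under 0.05 there were 10 members (13.2%), beside 29.9%. The log2 difference was above 0 in 41 of 76 (53.9%), beside 52.3%, and the median was 0.02, as over all genes. The members' median turned to -0.02 under median-of-ratios rescaling, to -0.07 with the glial and vascular covariate and to -0.04 with the copies' reads, where 30 of 82 (36.6%) were above 0. The median of all genes in these fits was -0.02, 0.01 and 0.02. The members' median was -0.04 without no stereotypy replicate 1, -0.03 and -0.01 without stereotypy replicates 2 and 1, 0.11 without stereotypy replicate 3 and 0.09 without no stereotypy replicate 3. In the same order that of all genes was 0.0168, 0.0151, -0.00147, 0.0337 and 0.0236.

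The largest differences at 5 CPM or more between these groups did not pass the threshold. Rpl31 (0.50, SE 0.18, adjusted p = 0.0888; 0.68 and adjusted p = 0.0370 without no stereotypy replicate 3), Rpl15 (0.25, SE 0.19, adjusted p = 0.421) and Rpl5 (0.24, SE 0.18, adjusted p = 0.387) were higher with stereotypy. Rpl15, with 68.8, 69.4 and 64.6 CPM with stereotypy and 52.7, 50.5 and 69.0 CPM without, was also low in control replicate 2, at 36.9 CPM beside 65.8 and 62.0 CPM in the other controls. Rpl29 (-0.44, SE 0.15, adjusted p = 0.0853), Rplp0 (-0.43, SE 0.16, adjusted p = 0.110) and Rpsa (-0.35, SE 0.17, adjusted p = 0.185) were lower. Rpl29 had 14.4, 15.9 and 11.0 CPM with stereotypy and 18.1, 21.8 and 16.9 CPM without, which did not overlap, around controls at 16.4, 15.1 and 17.5 CPM.

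Against the controls, 1 member was higher and 0 lower in both floxed groups together, a share of 1.32%. Of all genes 5.72% were called, 3.67% higher and 2.05% lower. On the recovered reads edgeR called 0 members beside 5.32% of all genes, and DESeq2 called 2 beside 9.68%. That member was Rps4x (log2 change 0.40, SE 0.10, adjusted p = 0.0474), whose adjusted p ranged from 0.0138 to 0.513 over the alternatives (limma, edgeR and DESeq2). The count of 1 was 2 without stereotypy replicate 3, 1 without control replicate 2 or stereotypy replicate 2, and 0 without any other single library. Over all 13695 genes, 784 were called with all libraries and 403 to 732 with a library left out. This comparison shares its libraries with those above, so it is no further evidence. In 7 members (9.21%) all 6 libraries lay above the 3 controls, beside 6.05% of all genes, and in 0 below, beside 3.25% (9.3% in either direction). The log2 change was above 0 in 63 of 76 (82.9%), beside 57.9%, with a median of 0.11 beside 0.04. The members' median was 0.07 without control replicate 2, 0.05 with quantile normalization and 0.02 with the glial and vascular covariate. Over all genes it was 0.04, -0.01 and 0.01 in these fits. At an unadjusted p under 0.05 there were 12 members (15.8%), beside 20.4% of all genes. A limma F test over the 3 group means called 5 members, Rplp0, Rps19, Rps4x, Rpl6 and Rpl9, beside 14% of all genes. Leaving out each library in turn gave 0 to 3 members, with 0 reached without no stereotypy replicate 1.

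Since so many reads were on copies, the fit was repeated with the reads of each copy added to its member and the copy rows dropped, a choice made after seeing the data. It tested 82 members and 13591 genes. With stereotypy, 0 members passed against control (3 at an unadjusted p under 0.05), beside 5.23% of all genes. Without stereotypy, 3 rose, beside 6.9% of all genes. These were Rpl6 (log2 change 0.37, SE 0.08, adjusted p = 0.0150), Rpl18 (0.38, SE 0.09, adjusted p = 0.0354) and Rpsa (0.43, SE 0.11, adjusted p = 0.0395). Between the floxed groups 0 passed (9 at an unadjusted p under 0.05), beside 10.4%, and for both against control 1 rose, Rpl3 (0.34, SE 0.08, adjusted p = 0.0365), beside 5.79%. The medians were 0.11, 0.16, -0.04 and 0.12 in the order of the comparisons above, beside 0.05, 0.03, 0.02 and 0.04 over all genes. In that order the log2 change was above 0 in 69 (84.1%), 75 (91.5%), 30 (36.6%) and 75 (91.5%) of the 82 members. In the fit without copies added, 58.3%, 54.7%, 52.3% and 57.9% of all genes were above 0. Members at an unadjusted p under 0.05 were 3 (3.66%), 19 (23.2%), 9 (11.0%) and 17 (20.7%). Of all genes in the fit without copies, these shares were 24%, 22.5%, 29.9% and 20.4%.

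Rpl6 was the called member that passed in both fits. With its 4 copies it stood at 88.3, 88.4 and 93.3 CPM in controls, 97.0, 101 and 94.7 CPM with stereotypy and 115, 118 and 117 CPM without. The 3 groups did not overlap in this sum either. Rplp0 with its 4 copies stood at 42.9, 38.5 and 47.0, at 42.8, 49.4 and 39.0 and at 51.2, 53.4 and 47.7 CPM in the same order, and its log2 change without stereotypy was 0.24 (adjusted p = 0.235). Rps19 with its 4 copies stood at 27.1, 26.3 and 28.6, at 31.3, 31.3 and 27.8 and at 29.5, 31.7 and 32 CPM, and its change with stereotypy was 0.13 (adjusted p = 0.428). Rps4x with its 3 copies had a change of 0.40 with stereotypy (adjusted p = 0.0576) and of 0.35 for both groups (adjusted p = 0.0526). The calls of Rplp0, Rps19, Rps4x and Rpl9 were thus present on the gene's own row and not in the sum over gene and copies. For Rps4x the change was of similar size in both, since its own row had 0.48 with stereotypy and 0.40 for both groups. Its adjusted p in the sum lay just above 0.05.

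Rpl18, a large-subunit protein named here for its call in the sum, showed the opposite. Its own row stood at 3.95 ± 0.679, 4.51 ± 1.02 and 4.04 ± 0.277 CPM (SD, n = 3 each; control, stereotypy, no stereotypy). With its 3 copies it had 38, 34.3 and 37.3 CPM in controls, 39.4, 41.7 and 36.6 CPM with stereotypy and 49.5, 48.5 and 45.5 CPM without, where the last group lay above the other 6 libraries. Rpsa with its 10 copies had 88.1, 102 and 115, then 106, 115 and 100, then 130, 146 and 134 CPM. Here too the libraries without stereotypy lay above all others.

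**Figure D4:**
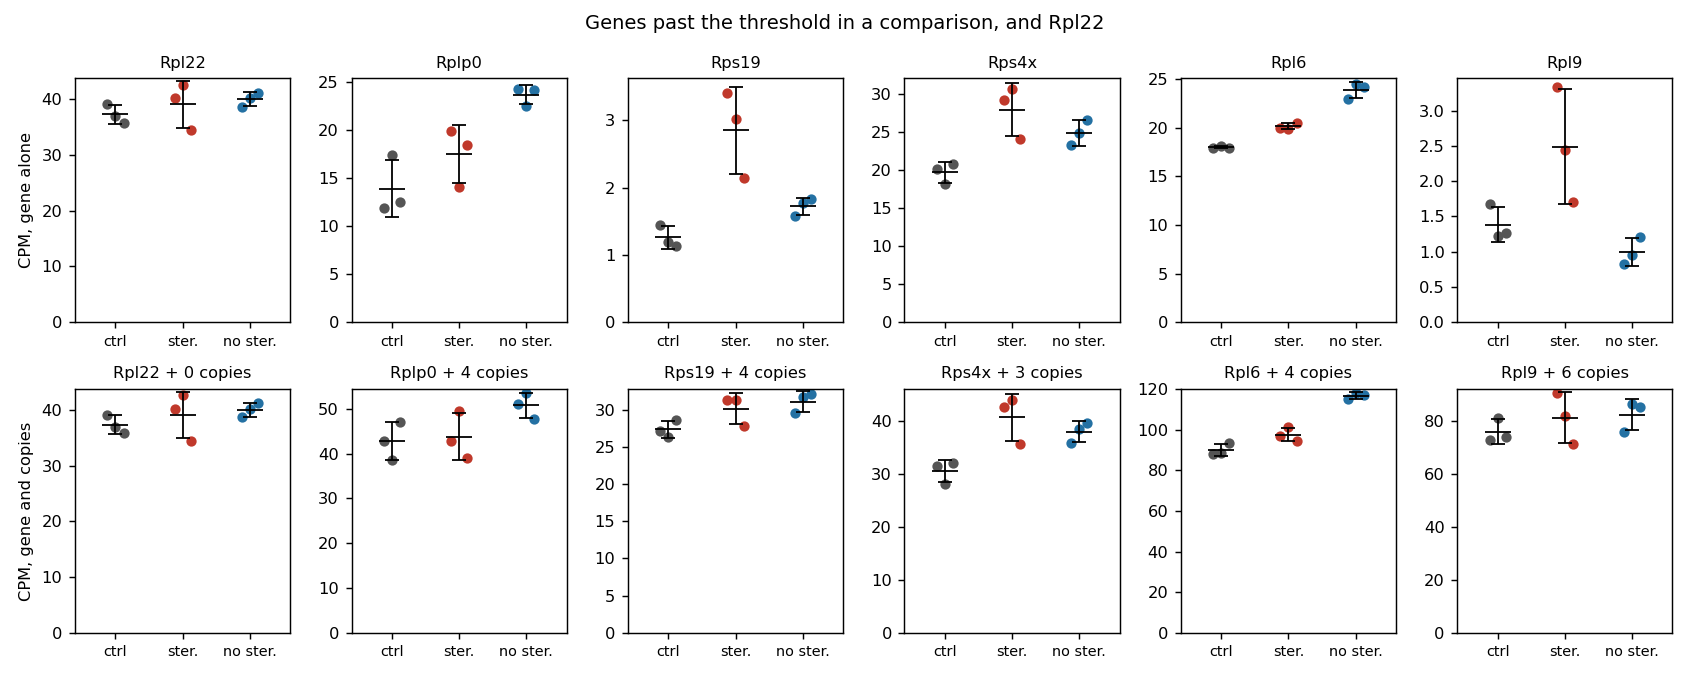
Level in CPM (y axes, from 0) of Rpl22 and of the 5 genes past the threshold in a comparison, for the gene alone (top) and with its annotated copies (bottom), in the 3 libraries of each group (points; bars show mean and SD, n = 3). Rpl6 separates the groups in both rows, while Rpl9 and Rps19 separate the stereotypy group only in the top row.

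Within some families the reads lay on different copies in different libraries. These examples were chosen after their values were seen. Rps13-ps2, whose sequence above equals that of Rps13, had 15.1, 9.87 and 14.2 CPM in controls, 0.609, 13.9 and 7.56 CPM with stereotypy and 6.28, 14.3 and 8.13 CPM without. Rps13-ps1 had 0.411, 0.113 and 0 CPM, then 13.1, 0.418 and 5.76 CPM, then 7.06, 0.336 and 6.97 CPM. Where one was low the other was high, and Rps13 with its 5 copies stayed within 10.4 to 16.1 CPM. The controls and the second library of each floxed group were nearly all Rps13-ps2, and stereotypy replicate 1 nearly all Rps13-ps1.

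Rpl3 and its copies split by library too. Rpl3-ps1 had 165, 179 and 183 CPM in controls, 236, 212 and 268 CPM with stereotypy and 198, 231 and 266 CPM without. In stereotypy replicate 3 and no stereotypy replicate 3, where it was highest, Rpl3-ps2 had 0.148 and 1.01 CPM, against 5.48 to 10.1 CPM in the other libraries. Gm5879 had 0.406 and 1.48 CPM there, against 5.98 to 13.4 CPM elsewhere, and Rpl3 itself was lowest there, at 2.44 and 3.28 CPM. The sum of Rpl3 and its 6 copies was 189, 202 and 212 CPM in controls, 254, 243 and 271 CPM with stereotypy and 225, 262 and 272 CPM without, so all 6 floxed libraries lay above the controls, while the gene's own row had a log2 change of -0.44 for both groups against control. Rps3a1, at 0.258 CPM in no stereotypy replicate 1 and 2.96 to 6.53 CPM in the other 8 libraries, had a copy, Rps3a3, that ran from 4.44 to 31.9 CPM and was highest in that library.

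**Figure D5:**
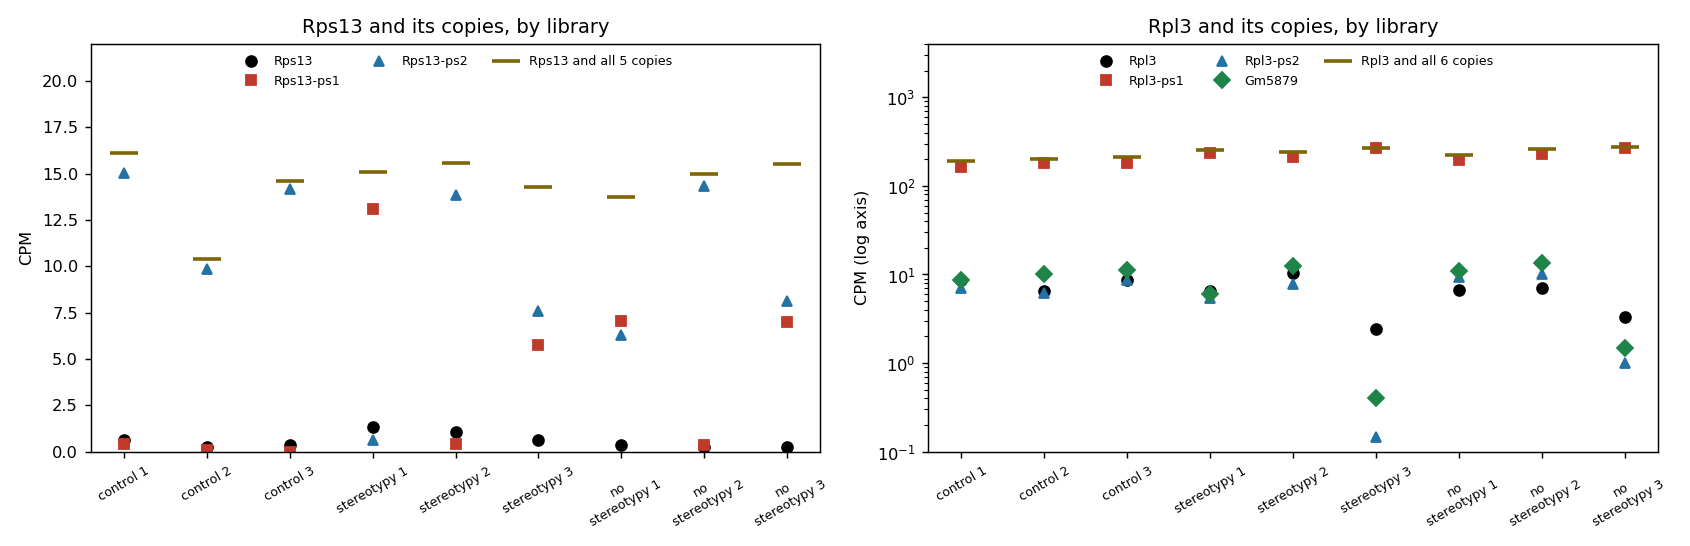
Level in CPM of Rps13 (left, linear axis) and Rpl3 (right, log axis), of their main copies and of the gene with all its copies, in the 9 libraries (x axis). Rps13-ps1 and Rps13-ps2 trade places between some libraries and lie close together in others, at a steadier sum. Rpl3, Rpl3-ps2 and Gm5879 are low in the third library of both floxed groups.

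The start sites of the members were searched for the letters of a terminal oligopyrimidine start, because the members share this mark and the rule did not use it. The letters searched were CTTTT, the same run closing in C written CTTTC, a form with 3 C written CTTCC, and a form with an inner C written CTCTT. These can overlap one another, and both strands were read over the 30 bases around the RefSeq start on GRCm38.p6. Of 78 listed promoters of 66 members, 32 (41.0%) held one on the sense strand, beside 15.3% of all 32851 promoters. On the other strand the shares were 16.7% and 15.8%. Matches are in capitals in these windows, which were picked from the members with such a match. Rps6 lies on the minus strand and the others on the plus strand.
Rps6, chr4:86857353-86857382: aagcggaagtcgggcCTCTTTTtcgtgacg
Rpl28, chr7:4792950-4792979: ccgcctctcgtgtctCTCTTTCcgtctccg
Rpl38, chr11:114668565-114668594: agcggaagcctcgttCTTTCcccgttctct
A match is a description of letters, and a window without one says nothing of the mRNA's true start.

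Other genes of translation were counted in lists drawn up beside the members, with earlier results known. Elongation factors and other mRNAs with such a start had a median log2 change of 0.12 with stereotypy and 0.12 without, with 0 and 1 of 20 called. Of all genes, 5.1% and 6.77% were called in these comparisons with control. The gene called was Eef1d, an exchange factor of elongation factor 1, at 43.9 ± 4.6 CPM in controls and 59.6 ± 3.25 CPM without stereotypy (log2 change 0.43, SE 0.10, adjusted p = 0.0249). Rack1, a small-subunit protein whose name the rule does not catch, stood at 128 ± 7.48, 138 ± 13.1 and 162 ± 19.3 CPM (control, stereotypy, no stereotypy) and did not pass against control (adjusted p = 0.576 and 0.0959). Fau, which encodes a ribosomal protein fused to a ubiquitin-like protein, stood at 2.19 ± 0.381 CPM in controls (SD, n = 3) and passed in no comparison. Ribosome biogenesis genes had medians of 0.12 and 0.10, with 0 of 40 called in both comparisons with control (12 and 8 at an unadjusted p under 0.05). Over all genes the shares were 5.1% and 6.77% called, and 24% and 22.5% at the unadjusted threshold.

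The list of mTORC1 and start-site control genes also held Myc, Mycl and Rps6ka3. Of its 21 tested genes, 2 (9.52%) were called with stereotypy against control, both higher, beside 5.1% of all genes. Without stereotypy 3 were higher and 1 lower (19.0%), beside 6.77%. The lower one was Rps6ka3, a ribosomal S6 kinase, at 81.8 ± 9.56 CPM in controls and 54.0 ± 2.72 CPM without stereotypy (log2 change -0.59, SE 0.12, adjusted p = 0.0185). With stereotypy Rps6ka3 stood at 92.6 ± 14.4 CPM, higher than without (log2 difference 0.76, SE 0.12, limma adjusted p = 0.0166). Between the floxed groups 2 of the 21 genes were higher with stereotypy and 1 lower (14.3%), beside 10.2%. Mycl and Myc, related transcription factors of which Myc is known to raise ribosome production, were the ones called with stereotypy against control. Mycl rose from 4.96 ± 0.199 CPM in controls to 12 ± 2.76 CPM (log2 change 1.11, SE 0.15, adjusted p = 0.00502). Myc rose from 1.99 ± 0.249 to 4.39 ± 0.448 CPM (0.85, SE 0.16, adjusted p = 0.0188). Without stereotypy they stood at 15.9 ± 0.784 and 4.24 ± 0.763 CPM (adjusted p = 0.000592 and 0.0158). Larp1, the most abundant gene of that list, stood at 197 ± 4.91, 182 ± 8.59 and 208 ± 15.3 CPM and passed in no comparison. Mitochondrial ribosomal protein genes, which serve the other ribosome of the cell, had a median of -0.04 with stereotypy and 0.08 without, with 0 of 74 called in both (6 and 5 at an unadjusted p under 0.05). Over all genes 5.1% and 6.77% were called, and 24% and 22.5% had an unadjusted p under 0.05. Between the floxed groups 3 of 74 (4.05%) were lower with stereotypy, beside 3.6% of all genes, among them Mrps12 (-0.51, SE 0.12, adjusted p = 0.0328). Nuclear respiratory chain genes had medians of -0.06 and 0.11 against control, and between the floxed groups 6 of 80 were lower and 1 higher with stereotypy, 8.75% in all beside 10.2% of all genes. Whether the members' medians differ from those of these lists was not tested.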

How the data were processed

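Each library's table, as deposited by the authors, gives CPM for 47729 Ensembl identifiers. TopHat and GRCm38 are named in the submitters' processing notes. Counter, annotation, strand setting and treatment of reads with several matches: not given in the sources used here, so reads of overlapping genes (16 members share over 10% of exon bases with another gene), antisense genes and copies may be split between rows. In each library 100% of values were whole multiples of 1 read within 0.1 reads, so whole reads were recovered. A count of 0 allows up to 0.0739 to 0.111 CPM.

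Symbols and positions came from GENCODE M21 (47310 identifiers, 99.12%, matched). A gene entered the fit if 3 or more libraries reached 1 CPM. The fit used limma 3.58.1 (R 4.3.3) on log2(CPM + 1), a scale that shrinks the changes of low genes, with a variance trend, all 9 libraries in 1 fit and Benjamini-Hochberg adjustment over 13695 genes. P-values set a group difference against the spread between libraries within groups, pooled over the 3 groups. Pairs of libraries in a group differed by a chi-square of at least 14.5 per degree of freedom, so each was counted once. On simulated reads for stereotypy against control (13695 genes), limma found 21% of the 1.5-fold changes, 60% of the 2-fold and 90% of the 3-fold ones. Levels per kb use the median length of a gene's protein-coding transcripts. Copies were found with 50-base words of GENCODE transcripts on both strands (Python 3.11.15).

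Named genes are Rpl22 and Rpl22l1, members past the threshold without overlap, the 3 largest rises and falls per comparison at 5 CPM or more, the 5 highest and 5 lowest per kb in controls, paralogs with their parents and members at 0; exceptions are marked, and some items are not reported here. The members, the lists and the alternatives were chosen with earlier results of these data known. Alternatives were other pseudocounts (0.25 and 4), filters, scalings, edgeR 4.0.16 and DESeq2 1.42.0 on the recovered reads, a block for replicate number, a glial and vascular marker covariate, removal of a transcript length trend, fits to the libraries compared, leaving out each library and, added later, the copies' reads.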

Additional observations from a re-analysis of the deposited data

Results flagged for a closer look

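Rpl9 differed between the groups that share the floxed TrkB genotype, by 0.784 on the log2 scale (higher with stereotypy in 3 of 3 libraries, limma adjusted p = 0.0351). It was flagged because both groups are set against the same controls and the difference between their changes passed the threshold. Its changes against control were 0.53 with stereotypy (adjusted p = 0.135) and -0.25 without (adjusted p = 0.494). Beside it, the sum of Rpl9 and its 6 copies gave a difference of -0.02 (adjusted p = 0.905), and the gene's own row held 2.03% of those reads.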

How the results depend on the processing

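The counts of members called were small and moved with most choices; the cause was not tested. For stereotypy against control the 2 calls became 1 with a mean of at least 5 CPM, with median-of-ratios rescaling, with the replicate block and with that block after removal of a transcript length trend. They became 0 with no filter on low levels, with quantile normalization, with the glial and vascular covariate, with only the libraries compared and with the copies' reads. Calls over all genes (of 13695 here and below unless given) moved too, from 699. The fits with 1 member called had 593 of 10500, 695, 917 and 844, in the order named. Those with 0 members called had 330 of 26238, 609, 24, 326 and 711 of 13591. For no stereotypy against control the 2 calls became 1 with no filter, rescaling, quantile normalization, the covariate, the length trend with or without the block, and only the libraries compared. All-gene calls there were 484 of 26238, 904, 914, 525, 1108 with the block, 984 without it, and 568, beside 927 in the main fit. For stereotypy against no stereotypy the 1 call became 0 with no filter, with at least 5 CPM, with the covariate and with the copies, 2 with rescaling or the replicate block, and 3 with DESeq2. In that order all-gene calls were 572 of 26238, 1352 of 10500, 601, 1410 of 13591, 1381, 1788 and 2343, beside 1398. For both groups against control the 1 call became 0 with pseudocount 4, no filter, rescaling, quantile normalization, edgeR, the replicate block with or without the length trend, and the covariate, and 2 with at least 5 CPM or DESeq2. The F test's 5 calls became 0 with no filter, 1 with the covariate, 2 with quantile normalization and the replicate block with or without the length trend, 3 with at least 5 CPM, rescaling and edgeR, 4 with pseudocount 4, the length trend or the copies' reads, and 6 with DESeq2. Leaving out each library gave 0 to 2 calls for stereotypy against control, 0 to 1 for no stereotypy against control, 0 to 2 for the other contrasts and 0 to 3 for the F test. All-gene calls then ran from 124 to 805 for stereotypy against control and from 317 to 935 for no stereotypy against control. They ran from 0 to 1982 between the floxed groups and from 403 to 732 for both against control.

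The median for stereotypy against control was -0.01 (-0.0123) with the covariate and 0.05 to 0.19 otherwise. Over all genes it was 0.02 with the covariate and -0.01 to 0.07 otherwise. Without the 3 most abundant members the summed levels averaged 1055, 1163 and 1191 CPM (control, stereotypy, no stereotypy). Signs turned for Rpl15 between the floxed groups (-0.0498 with the covariate) and for Rpl22 with stereotypy (-0.00651 with rescaling, -0.0247 with the covariate). For stereotypy against control the median of all genes was -0.00855 with rescaling and 0.0205 with the covariate. Leaving out each library gave -0.00148 to 0.148 for Rpl22 with stereotypy, -0.100 to 0.0487 for Rpl22 between the floxed groups and -0.800 to 0.0562 for Rpl3 with stereotypy. With the copies' reads, Rpl3 turned to 0.35 with stereotypy, 0.33 without and 0.34 for both, Rpl31 to 0.0221 without stereotypy and 0.0340 for both, and Rpl9 to -0.0238 between the floxed groups. Same-numbered libraries of different groups correlated at -0.08 to 0.41 in their deviations from group means, and not every library correlated best with its own number, so the numbers were not taken to pair them.

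At this depth Rps19 and Rpl9 rested on 32 to 95 reads per library, and the simulated test found 21% of 1.5-fold changes, so small changes of single members can go uncalled.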
